A study of Mus musculus with 2 samples.

Results

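Single-cell counts from EMT6 tumors were used to describe 10 genes of the NRF2, glutathione and metallothionein response, of 55450 genes in the matrices. The 10 genes are Gsta1, Gsta4, Mt1, Mt2, Hmox1, Nqo1, Gclm, Gclc, Srxn1 and Txnrd1, each matched by its symbol, and all 10 had at least 100 UMIs in tumor-like cells over both libraries. They were chosen by their UMI sums and their co-variation among tumor cells in earlier results of these data, so every value below is a description and none is a test. EMT6 is a mouse mammary carcinoma line, labelled here as triple-negative breast cancer (TNBC), and 200000 cells were injected subcutaneously into BALB/c mice. One library came from mice given LLY-283, an inhibitor of the arginine methyltransferase PRMT5, with Olaparib, a PARP inhibitor (the Olaparib + LLY-283 group). The other came from mice given the same pair of drugs and an antibody to PD-1 (the Combo group). LLY-283 was given at 50 mg/kg in cycles of 3 dosing days and 4 days of rest, Olaparib was given at 50 mg/kg, and anti-PD-1 at 200 µg every 3 days. Each library was a pool of 3 mice, so both groups shared LLY-283 and Olaparib, no untreated tumor was analysed here, and animals within a group could not be separated. With 1 library per group no difference could be tested. Every interval below is a 95% interval that covers only counting error or, for shares, the sampling of cells within a library.

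NRF2 is a transcription factor that is held back by KEAP1 and released when electrophiles or oxidants modify that protein. It then enters the nucleus, pairs with a small MAF protein and binds antioxidant response elements (AREs), while BACH1 competes for the same sites. Among its best known targets are both subunits of glutamate-cysteine ligase (Gclc, the catalytic subunit, and Gclm, the modifier), which make the rate-limiting step of glutathione synthesis. Others are the glutathione S-transferases, the quinone reductase Nqo1, thioredoxin reductase Txnrd1, sulfiredoxin Srxn1 and heme oxygenase Hmox1. Metallothioneins Mt1 and Mt2 are small cysteine-rich proteins that bind zinc and copper. They are controlled mainly by the zinc-sensing factor MTF1 through metal response elements (MREs), and they also respond to glucocorticoids and low oxygen. Hmox1, which degrades heme, is the member most used by macrophages that clear red cells.

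The genes lie in groups on the mm10 genome, by the GENCODE M21 annotation. Mt1 (chr8:94179082-94180327) and Mt2 (chr8:94172664-94173568) are neighbors on the plus strand of chromosome 8, which also holds Hmox1 (chr8:75093621-75100589, plus strand) and Nqo1 (chr8:107388225-107403206, minus strand). Gsta1 (chr9:78230656-78242684), Gsta4 (chr9:78182774-78209349) and Gclc (chr9:77754535-77794485) are on the plus strand of chromosome 9. Gclm is at chr3:122245557-122270732, Srxn1 at chr2:152105516-152111376 and Txnrd1 at chr10:82833951-82897712, all on the plus strand. A promoter window of the RefSeq table (build GRCm38.p6) was found for 7 of the 10 members, and the 250 bases before the start were searched on both strands. Hmox1, Gsta4 and Gclc had no entry. Below are the windows of the members that carry the main patterns of co-variation, both metallothioneins and the pair Gclm and Txnrd1. Capitals mark the MRE core in Mt1 and Mt2, and the ARE core in Gclm and Txnrd1, in the orientation in which they lie.
Mt1, chr8:94178839-94179088, plus strand: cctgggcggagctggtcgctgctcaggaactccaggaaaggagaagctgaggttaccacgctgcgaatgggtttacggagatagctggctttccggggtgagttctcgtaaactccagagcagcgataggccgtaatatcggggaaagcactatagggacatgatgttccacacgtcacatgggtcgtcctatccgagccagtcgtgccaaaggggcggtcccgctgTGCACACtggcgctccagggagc
Mt2, chr8:94172368-94172617, plus strand: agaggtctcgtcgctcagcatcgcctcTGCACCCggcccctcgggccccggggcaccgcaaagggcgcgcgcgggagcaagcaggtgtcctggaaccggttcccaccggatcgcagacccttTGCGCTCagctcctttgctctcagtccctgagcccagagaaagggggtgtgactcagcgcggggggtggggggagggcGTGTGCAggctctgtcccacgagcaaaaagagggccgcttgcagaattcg
Gclm, chr3:122245307-122245556, plus strand: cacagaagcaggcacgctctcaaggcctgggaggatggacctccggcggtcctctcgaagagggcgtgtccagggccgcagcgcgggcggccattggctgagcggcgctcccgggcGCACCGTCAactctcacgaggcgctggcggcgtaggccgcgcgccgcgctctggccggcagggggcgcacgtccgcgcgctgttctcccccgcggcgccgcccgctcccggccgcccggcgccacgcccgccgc
Txnrd1, second start, chr10:82858956-82859205, plus strand: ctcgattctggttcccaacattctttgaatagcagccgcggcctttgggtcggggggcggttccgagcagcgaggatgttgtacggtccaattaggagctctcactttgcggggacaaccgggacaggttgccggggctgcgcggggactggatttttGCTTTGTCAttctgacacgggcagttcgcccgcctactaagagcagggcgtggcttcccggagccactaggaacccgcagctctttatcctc
The MRE core was searched as TGCACNC or TGCGCNC and was found in 21.4% of all 32851 promoter windows of this length. Mt1 held 1 match, 16 bases before its RefSeq start, and Mt2 held 3, where 5.18% of all windows held at least 2. The ARE core was searched as TGACNNNGC and was found in 10.2% of all windows. It was found 1 time each in Gclm, in 1 of the 3 start windows of Txnrd1 and in Mt2, and not in the windows of Mt1, Gsta1, Srxn1 and Nqo1. Gclm also held 2 matches to the MRE core. The hypoxia response element core, ACGTG, was in 16.6% of all windows, with 1 match in Mt1, 1 in Gclm and 0 in Mt2. In Gclm, 1 match to the MRE core shares bases with the ARE match and the other with the hypoxia match; no other matches overlap. These are letter matches only, and elements farther upstream, or downstream of the RefSeq start, are outside the windows. The Mt2 window ends at 94172617, before the GENCODE start of 94172664, and the bases between them were not searched.

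The libraries differed widely in depth. They held 16115 cells with 147214934 UMIs (Olaparib + LLY-283) and 7542 cells with 162522700 UMIs (Combo). A limit of 20% mitochondrial UMIs left out 0.534% and 21.0% of cells. Predicted doublets made up 14.7% and 0.789% of the rest. Tumor-like cells, called by keratin and Epcam UMIs (Krt8, Krt18, Krt19, Krt7, Krt14 and Epcam), numbered 5087 and 2162, with medians of 10858 and 51120 UMIs. All 6 markers were detected in these cells, and Krt18, Krt7 and Krt8 were among their leading genes in both libraries. A further 49.3% and 24.7% of cells met the rule of no class. The libraries shared 39 barcodes, of which 9 and 15 were tumor-like cells.

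In tumor-like cells, the metallothioneins were by far the most abundant of the 10 genes. Over all tumor-like cells they also had the lowest ratios between the libraries. That order held in cells of 40000 UMIs or more (0.621 for Mt1 and 0.684 for Mt2), but not in the ranges between 5000 and 40000 UMIs. A level is given as counts per 1e+06 UMIs of the class (CPM). The 3′ kit counts molecules, so that no division by gene length was made. Mt1 was at 6350 CPM in the Olaparib + LLY-283 tumors and 4227 CPM in the Combo library. That was a Combo over Olaparib + LLY-283 ratio of 0.666 (interval 0.663 to 0.668), the only one of the 10 past the 1.5-fold limit, and only just. The ratio of Mt1 was 0.671 in cells of at least 5000 UMIs, 0.701 as a mean over cells and 0.711 when 1 keratin marker sufficed, all inside the limit, whereas it was 1.32 in cells of 20000 to 40000 UMIs, described further on. Mt1 was the gene with the 11th highest level in the Olaparib + LLY-283 tumors and the 27th in the Combo library. Mt2 was at 1160 and 789.5 CPM, and its ratio of 0.680 (0.674 to 0.687) lay just inside the limit. The median tumor-like cell of at least 5000 UMIs held 47.2 Mt1 UMIs per 10000 in the Olaparib + LLY-283 tumors and 27.4 in the Combo library. The spread between cells was wider than this gap, since the 10th and 90th percentiles of Mt1 were 11.9 and 148.8 in the former and 7.84 and 114.9 in the latter. The corresponding Mt2 medians were 8.71 and 5.57 per 10000.

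**Figure D1:**
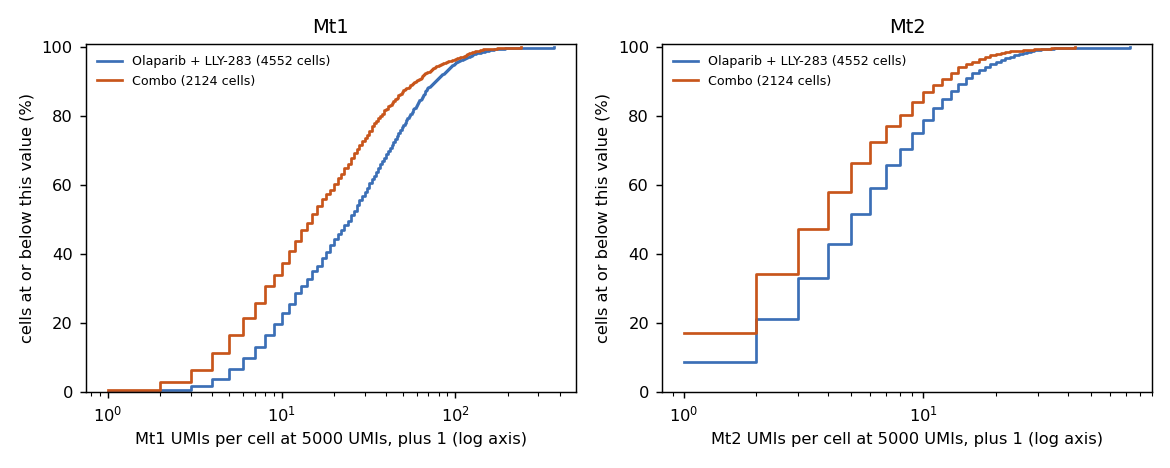
Cumulative percent of tumor-like cells (y axis) at or below a given number of Mt1 (left) or Mt2 (right) UMIs, counted after thinning to 5000 UMIs with 1 added (x axis, log scale), for 4552 and 2124 cells. The Combo curve lies to the left of the Olaparib + LLY-283 curve for both genes, with thinned medians of 23.1 and 14 UMIs for Mt1 and 4 and 3 UMIs for Mt2.

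Hmox1, Gsta4, Txnrd1 and Gclm formed a second tier, and each was slightly lower in the Combo library. Hmox1, which opens the heme ring to give biliverdin, iron and carbon monoxide, was at 252 and 206 CPM, a ratio of 0.817 (0.801 to 0.833). Gsta4, a transferase that conjugates the lipid peroxidation product 4-hydroxynonenal to glutathione, was at 296 and 263 CPM, a ratio of 0.889 (0.873 to 0.905). Txnrd1, which keeps cytosolic thioredoxin reduced, was at 190 and 176 CPM, a ratio of 0.930 (0.909 to 0.951). Gclm was at 178 and 163 CPM, a ratio of 0.915 (0.894 to 0.936). Its partner Gclc had far fewer UMIs, at 40.7 and 33.6 CPM, a ratio of 0.826 (0.787 to 0.868).

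Srxn1 was nearly level over all cells, and Nqo1 and Gsta1 were higher in the Combo library. Srxn1, which repairs overoxidized peroxiredoxins, was at 53.4 and 53.0 CPM, and the interval of its ratio held 1 (0.952 to 1.03). Nqo1, which reduces quinones in a single 2-electron step, was at 22.4 and 25.2 CPM, a ratio of 1.13 (1.06 to 1.20). Gsta1, the other alpha-class transferase, was at 4.39 and 5.51 CPM, from 290 and 640 UMIs, a ratio of 1.26 (1.09 to 1.45). In all, 8 members had a ratio below 1 and 2 above it, where 34.2% of 13101 tested genes were below 1. Members at least 1.5-fold lower in Combo numbered 1 of 10, where 1.66% of 13101 tested genes were, and none was at least 1.5-fold higher, where 6.27% were. The median log2 ratio was -0.15 over the members and 0.09 over all tested genes.

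**Figure D2:**
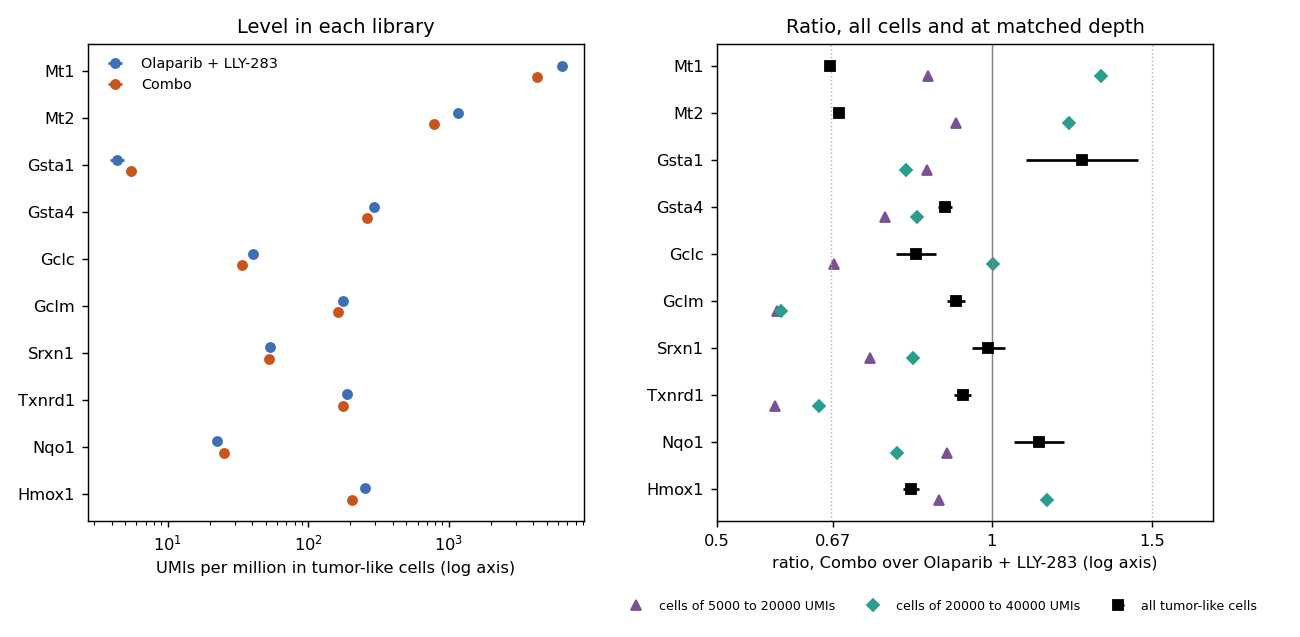
Level of each member in tumor-like cells (left, CPM, log axis, 1 point per library with 95% counting intervals) and its Combo over Olaparib + LLY-283 ratio in all cells and in matched depth ranges (right). Mt1 and Mt2 have the lowest ratios over all cells (0.666 and 0.680), whereas Gclm and Txnrd1 have the lowest in cells of 20000 to 40000 UMIs (0.588 and 0.648).

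These ratios depended on which cells were compared, and tumor-like cells of the Combo library were several times deeper. In cells of 20000 to 40000 UMIs, a range chosen after the data had been seen because both libraries have many cells in it (711 and 462), Mt1 was at 5500 and 7253 CPM. Its ratio there was 1.32, the opposite direction to that over all cells, and that of Mt2 was 1.22. In the same range Gclm was at 197 and 116 CPM, a ratio of 0.588, and Txnrd1 at 193 and 125 CPM, a ratio of 0.648. Both passed the limit in this range, which they did not over all cells. In cells of 5000 to 20000 UMIs, where the Combo library had few cells (26 below and 89 above 10000 UMIs, against 1752 and 2007), the ratios of Gclm and Txnrd1 were 0.582 and 0.579. In its lower part, below 10000 UMIs, they were 0.762 and 0.750, inside the limit. Over the whole range of 5000 to 20000 UMIs the ratio of Mt1 was 0.852. Gsta4 was lower in the Combo library in both ranges, with ratios of 0.764 and 0.829. Gsta1 and Nqo1, above 1 over all cells, were below 1 in both ranges (0.850 and 0.806 for Gsta1, 0.895 and 0.787 for Nqo1). The Gsta1 value of 0.850 rested on 0 Combo UMIs below and 6 above 10000 UMIs per cell. In cells of 40000 UMIs or more both ratios were above 1, at 3.23 for Gsta1 (7 and 572 UMIs) and 1.11 for Nqo1. In the deepest range, 40000 UMIs or more, Mt1 was at 6055 CPM in 82 cells of the Olaparib + LLY-283 tumors and at 3761 CPM in 1547 cells of the Combo library, so the pooled Combo value rested mainly on these deep cells. In this range Txnrd1 was higher in the Combo library, at 158 and 184.8 CPM, a ratio of 1.17, and the ratios of Gsta4 and Srxn1 were also above 1 (1.08 and 1.16), while that of Gclm was 0.859. No member but Gclm among these 4 thus kept 1 direction in the ranges of 5000 UMIs or more. Other measures moved with the library too. The 11 immediate early and heat shock genes fixed as a dissociation list were all below 1 (median log2 ratio -0.26), and Mgp, a matrix gene, was at 203 and 89.8 CPM. Some genes that mark other tumor cell states moved further, with Il24 at 3.68 and 27.1 CPM, a ratio of 7.375, and Klk10 at 16.9 and 5.74 CPM, a ratio of 0.339. Of 7 such genes, 3 were lower and 1 higher by the 1.5-fold limit. The other 3 lay within it, with ratios of 1.14 for Sox9, 0.861 for Sfn and 0.847 for Omd. The interferon gene Ifit1 had a ratio of 1.54. Of 8 interferon genes, 2 were higher by the limit, 6 lay within it, and 3 had a ratio below 1. Their part in the ratios of the members was not tested, and the library, its depth and the treatment cannot be told apart.

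When every cell was reduced by random thinning to 5000 UMIs, for equal depth, the share of tumor-like cells with a UMI was lower in the Combo library for 9 of 10 members. Without thinning it was lower for 1 of 10. How many of all genes were lower at 5000 UMIs was not counted, so nothing is read from these counts. At this depth, where Mt1 and Mt2 are in nearly all cells, Hmox1 had the largest difference, with a UMI in 59.3% of 4552 cells and 50.9% of 2124 cells, a difference of -8.32 percentage points (interval -10.9 to -5.76). With all UMIs its shares were 78.4% and 93.9%. At 1000 UMIs the differences of Mt2 (-11.4 percentage points) and Mt1 (-7.38) were larger than that of Hmox1 (-3.27). Mt2 was in 91.2% and 84.2% of thinned cells, and Mt1 in 99.9% and 99.5%. The thinned share of Txnrd1 was 56.8% and 51.6%, that of Gclm 52.5% and 47.6%, and that of Gsta4 68.2% and 63.3%. Gclc was in 17.4% and 14.4%. The intervals of the difference held 0 for Srxn1 (22.6% and 21.4%), Nqo1 (9.95% and 11.04%) and Gsta1 (1.81% and 1.74%). They take the cells as draws from 1 library per group, so they do not say whether the groups differ in any member.

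The UMIs of Gsta1 were packed into few cells. The 1% of tumor-like cells with the most Gsta1 held 51.4% and 55.9% of its UMIs, against 11.5% and 11.02% for Hmox1 and 6.75% and 6.88% for Mt1. Gsta1 was detected in only 3.77% and 9.71% of these cells, against 78.4% and 93.9% for Hmox1. A low count by itself makes such a share large, so these shares do not compare the genes at equal abundance. At 5000 UMIs per cell, the variance over the mean, which is 1 for counts that vary by sampling alone, was 31.3 and 32.5 for Mt1 and 6.40 and 5.68 for Mt2. It was 3.13 and 3.01 for Hmox1, 1.95 and 1.99 for Gsta4, and 1.38 and 2.70 for Gsta1. For Gclc, Gclm, Srxn1, Txnrd1 and Nqo1 it lay between 1.04 and 1.38 in both libraries. Most of the variation of these 5 genes between thinned cells was therefore no larger than counting alone gives, and the counts limit any correlation among them. Where cells differ, the variance over the mean rises with the mean count. Mean counts were 33.4 and 23.9 for Mt1 but 0.021 and 0.027 for Gsta1, so these values do not rank the genes by spread between cells.

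The Gsta1 count is uncertain because of near-identical neighbors. Of 864 distinct 91-base windows of its annotated transcripts, 66.1% also occur in Gm3776, 25.6% in Gsta2 and 14.6% in Gm10639, and 81.8% in at least 1 of these. In tumor-like cells Gm3776 had 112 and 154 UMIs, Gsta2 14 and 18, and Gm10639 12 and 75. No window was shared with Gsta4, which lies on the same chromosome. Mt2 overlaps the antisense gene Gm45774 by 432 exon bases, with 77 and 110 UMIs there, against 76602 and 91679 for Mt2. Gclm shares 296 exon bases with Gm17494 on the other strand (247 and 328 UMIs) and 244 with the pseudogene Gm6061 (17 and 23 UMIs).

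Across tumor-like cells the 10 genes did not vary as 1 block. Correlations below are Pearson's r over cells thinned to 5000 UMIs (4552 and 2124 cells). The cells of a value come from 1 library and have equal depth, and they are not replicates. Mt1 and Mt2 moved tightly together, with r of 0.81 in the Olaparib + LLY-283 tumors and 0.76 in the Combo library. Hmox1 went with both, at 0.30 and 0.32 with Mt1 and at 0.26 and 0.24 with Mt2. Gsta1 and Gsta4 were at 0.15 in both libraries. Txnrd1 went the other way from Mt1, at -0.19 and -0.15. Pairs with r of at least 0.1 numbered 5 of 45 in each library, where 0.132% and 0.234% of 26401011 pairs of detected genes reached it. The pairs were part of what chose the members, so nothing is read from this count.

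**Figure D3:**
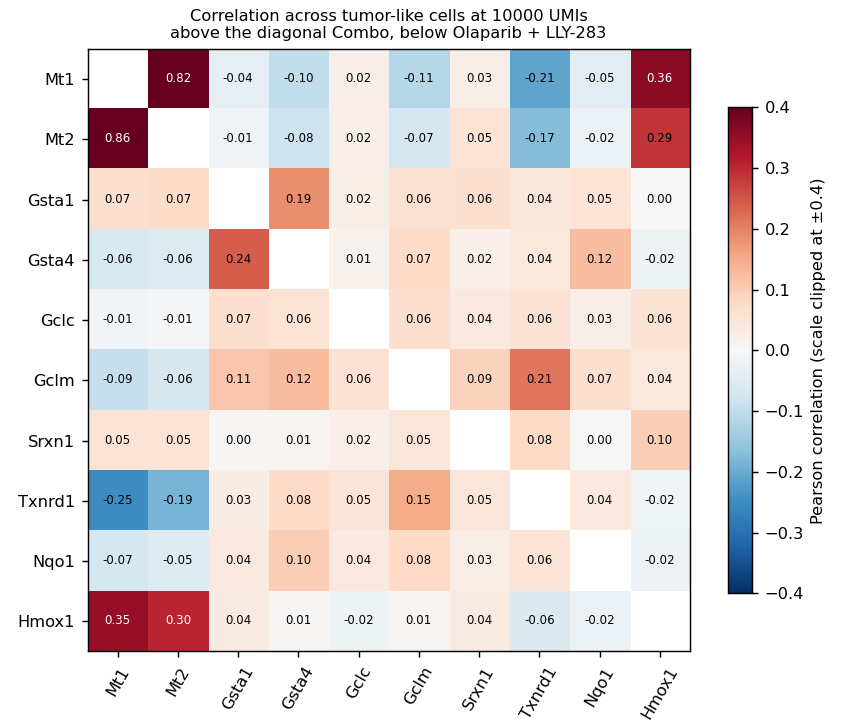
Pearson's r for each pair of members across tumor-like cells thinned to 10000 UMIs, with the Olaparib + LLY-283 tumors (2800 cells) below the diagonal and the Combo library (2098 cells) above it. The block of Mt1, Mt2 and Hmox1 stands out in both, Txnrd1 is negative with Mt1 and Mt2, Gclm with Txnrd1 (0.15 and 0.21) and Gsta1 with Gsta4 (0.24 and 0.19) are positive, and 7 and 6 of 45 pairs reach 0.1 while 2 and 3 lie at or under -0.1. The share over all gene pairs is not given at this depth, and the pairs helped choose the members. Nothing is read from these counts.

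The 6 NRF2 targets that are not transferases (Gclc, Gclm, Srxn1, Txnrd1, Nqo1 and Hmox1) had low r at the thinned depth used above. Their 15 pairs had a mean r of 0.020 and 0.038, where the median over all gene pairs was 0.0017 and 0.0029. The strongest of the 15, Gclm with Txnrd1, was at 0.089 and 0.124. Low counts limit these values, so they do not show that the genes vary apart. Gclc and Gclm, which form 1 enzyme, were at 0.028 and 0.042. The correlation of Hmox1 with the other 5 ranged from -0.034 to 0.062. Because low counts pull r toward 0, the deeper Combo cells were also compared at 30000 UMIs (1847 cells), a setting chosen after the data had been seen. There the mean over the 15 pairs was 0.084, and 7 of the 15 reached 0.1, where 2.21% of 61543965 gene pairs did. Those gene pairs were not matched to the members in abundance, and co-variation was part of what chose the members. Nothing is therefore read from this count. Gclm with Txnrd1 was at 0.32, Srxn1 with Txnrd1 at 0.15, Gclm with Srxn1 at 0.13, Gclc with Txnrd1 at 0.12 and Gclc with Gclm at 0.11. Hmox1 stayed between -0.07 and 0.10 with the other 5, while its r with Mt1 was 0.39. Mt1 with Mt2 was at 0.87 and Mt1 with Txnrd1 at -0.33. At 10000 UMIs, where both libraries could be compared (2800 and 2098 cells), Gclm with Txnrd1 was at 0.15 and 0.21.

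The genes whose pattern was most like that of a member differed between the groups of members. By mean r over both libraries, the closest to Mt1 after Mt2 (0.81 and 0.76) were Ero1l (0.47 and 0.47), Gapdh (0.50 and 0.42), Adm (0.42 and 0.49) and Slc2a1 (0.46 and 0.44). Ero1l is an oxidase of the endoplasmic reticulum, and Slc2a1 is the glucose transporter GLUT1. Mt2 was closest to Mt1, Ero1l, Lgals3, Adm and Slc2a1. The lowest r with Mt1 was that of Sparc, a matrix protein, at -0.43 and -0.32. Hmox1 was closest to Adm (0.32 and 0.32), Mt1, Slc2a1 (0.24 and 0.29), Hilpda (0.26 and 0.25) and Mt2. Adm, which encodes adrenomedullin, and Hilpda, a lipid droplet protein, are textbook targets of the hypoxia-inducible factor HIF-1.

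Other genes were closest to Gclm and Txnrd1. Gclm was closest to H2afz (0.15 and 0.18), Hmgb2 (0.15 and 0.17), Ran (0.14 and 0.17), Cenpa and Ube2c, which are chromatin, nuclear transport and mitosis genes. Txnrd1 was closest to Ncl, or nucleolin (0.14 and 0.19), Hnrnpa3 (0.11 and 0.17), Hist1h1b, Set and H2afz, and its lowest values were with Fau (-0.19 and -0.22) and Gapdh (-0.18 and -0.22). Gsta4 was closest to Prdx1 (0.17 and 0.20), Slpi (0.16 and 0.18), Esd (0.13 and 0.16), Ftl1 (0.13 and 0.10) and Avpi1. Prdx1, a peroxiredoxin, and Ftl1, ferritin light chain, are themselves NRF2 targets. Gsta1 had Gsta4 as its closest gene, and Gclc had Fos (0.12 and 0.09). No gene reached a mean of 0.1 with Srxn1 or Nqo1. At 30000 UMIs in the Combo library, Nqo1 was closest to Gsta4 (0.23), Prdx1 (0.20), Blvrb (0.17) and Esd (0.17). Srxn1 was closest there to Hsp90aa1 (0.20), a heat shock protein, and Fosl1 (0.18). Gclm was at 0.42 with Ran and 0.41 with H2afz, and Txnrd1 at 0.42 with Set and 0.40 with Ncl.

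Gene lists gave a like split, but they are not independent of the genes just named. The hypoxia list holds Slc2a1 and the G2M list holds Ube2c, and the cells are the same. The summed UMIs of 9 hypoxia genes, Slc2a1, Pgk1, Ldha, Bnip3, Vegfa, Car9, Ndrg1, Ankrd37 and Egln3, had r of 0.55 and 0.47 with Mt1, 0.47 and 0.37 with Mt2 and 0.24 and 0.22 with Hmox1. With Txnrd1 the r was -0.18 and -0.19. When the cells were ordered by that sum and cut into 4 equal bins (1138 and 531 cells each), the mean Mt1 count at 5000 UMIs was 14.4, 24.3, 36.8 and 57.5 in the Olaparib + LLY-283 tumors. In the Combo library it was 10.9, 15.3, 24.3 and 45.4. Mt1 was thus higher in each successive bin of both libraries, and lower in the Combo library within each bin. Hmox1 had means of 0.789, 1.04, 1.39 and 1.99 in the Olaparib + LLY-283 tumors and 0.682, 0.763, 1.20 and 1.68 in the Combo library. Txnrd1 had the reverse order, from 1.21 to 0.666 and from 1.11 to 0.561.

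The G2M list (Top2a, Mki67, Cdk1, Ccnb1, Ube2c, Cenpf, Birc5 and Hmmr) went with Gclm, with r of 0.17 and 0.20, and against Mt1, at -0.24 and -0.21. From the lowest to the highest bin of G2M counts, the mean of Gclm was 0.695 and 1.12 in the Olaparib + LLY-283 tumors and 0.591 and 0.977 in the Combo library. Over the same bins Txnrd1 was at 0.828 and 1.09, and at 0.680 and 1.02. Mt1 was at 42.7 and 24.1, and at 29.3 and 16.2. At 30000 UMIs in the Combo library, Gclm had r of 0.37 with the G2M list, 0.29 with the S phase list and 0.32 with a list of ATF4 targets, the amino acid stress response. Depth moved with these genes too: the log2 UMIs per cell before thinning had r of 0.27 with Gclm, 0.24 with Txnrd1 and -0.21 with Mt1 in those cells. In the Olaparib + LLY-283 tumors Txnrd1 did not show this, with r of 0.04 at 5000 UMIs and -0.03 at 10000. The part of cell size or depth in these correlations was not tested. The dissociation list of immediate early and heat shock genes had r of 0.24 with Mt1 and 0.19 with Hmox1 in the Combo library. In the Olaparib + LLY-283 tumors it had r of 0.07 and 0.06. The mitochondrial percent had r of -0.22 with Mt1 in the Olaparib + LLY-283 tumors and -0.04 in the Combo library. The interferon list stayed between -0.06 and 0.03 with all members in both libraries.

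**Figure D4:**
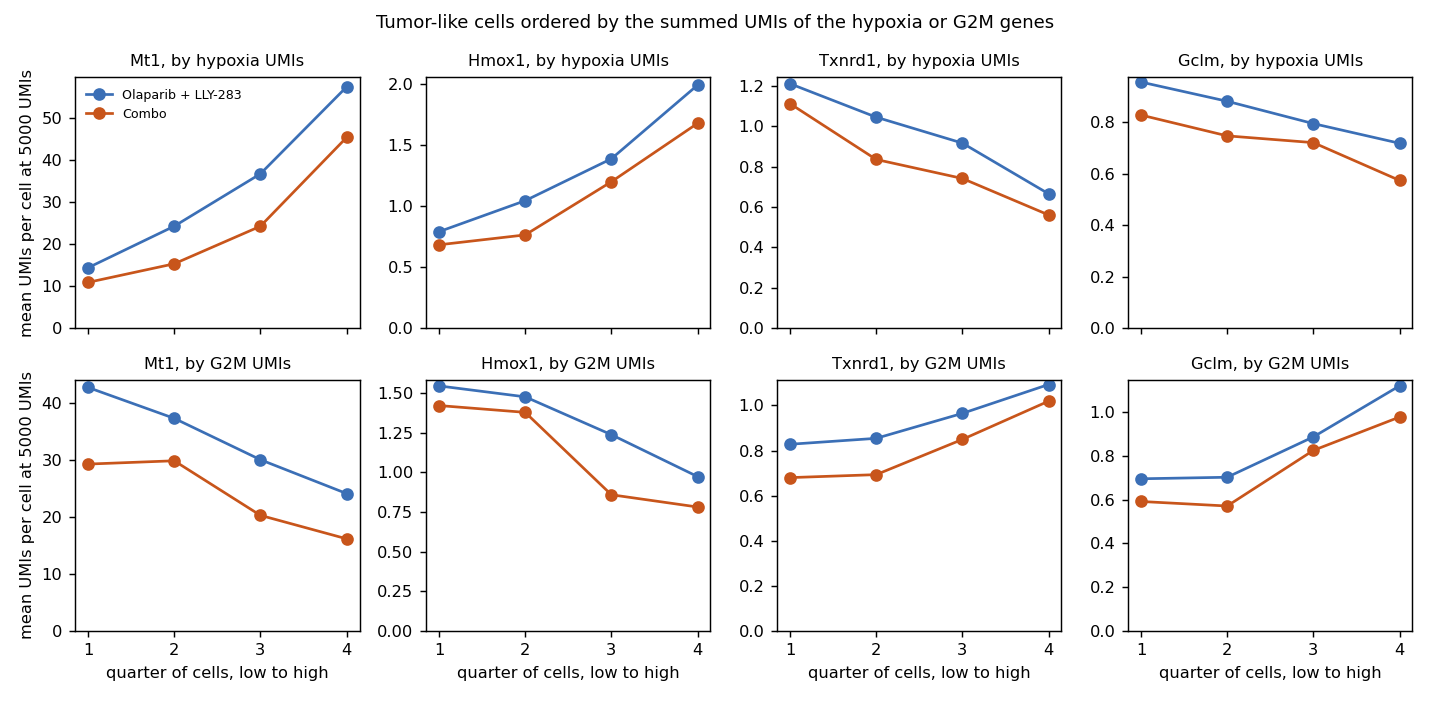
Mean UMIs per cell at 5000 UMIs of Mt1, Hmox1, Gclm and Txnrd1 (y axes, from 0) over 4 equal bins of tumor-like cells ordered by the summed UMIs of the hypoxia genes (upper row) or of the G2M genes (lower row), 1 line per library. Mt1 goes from 14.4 to 57.5 and from 10.9 to 45.4 with the hypoxia genes while Txnrd1 goes from 1.21 to 0.666 and from 1.11 to 0.561, and with the G2M genes the directions are opposite.

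Outside the tumor-like cells, 3 patterns are described first, and then the remaining members Gclc, Gclm, Srxn1 and Txnrd1. Cells were placed in a class where UMIs of its fixed markers passed a floor, and classes of fewer than 20 cells are not described. Tumor RNA in the droplets of other classes was gauged by Krt8, an epithelial keratin, with Krt18, its pairing partner, as a second gauge. Both are markers of the tumor-like rule, so cells richest in them had met more than 1 class and were left out. Krt8 was at 9.54% to 36.5% of its tumor-like level in the other classes of the Olaparib + LLY-283 tumors, and at 9.23% to 35.1% in the Combo library. Krt18 was lower in most classes, at 0% to 22.4% and 0% to 35.2%, so the background is not known closely.

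The first pattern was that of the transferases and Nqo1, whose highest measured levels were in tumor-like cells in both libraries. Gclm and Srxn1, described further on, were also highest there in both libraries, so this trait is not particular to the first pattern. The intervals of the first 2 classes overlapped for Nqo1 and Srxn1 in both libraries, and for Gclm in the Olaparib + LLY-283 tumors. In those tumors Srxn1 was at 53.4 CPM in tumor-like cells and 52.6 CPM in myogenic-like cells, the latter from 3 UMIs. Gsta4 was at 53.8 and 32.5 CPM in macrophage-like cells, or 18.2% and 12.3% of its tumor-like level, where Krt8 was at 17.7% and 12.2% but Krt18 at 3.66% and 5.12%. In neutrophil-like cells it was at 34.5% and 22.6%, where Krt8 was at 36.5% and 23.6% and Krt18 at 22.4% and 16.7%. In CAF-like cells, which carry the markers of cancer-associated fibroblasts, it was at 18.0% and 16.5%, where Krt8 was at 15.0% and 10.35% and Krt18 at 5.23% and 9.51%. At 1000 UMIs per cell, Gsta4 was detected in 23.9% and 21.2% of tumor-like cells and in 5.87% and 3.69% of macrophage-like cells, whose Krt8 shares were 15.2% and 9.84% against 58.9% and 53.9%. Gsta4 was thus close to the background by Krt8 in macrophage-like and neutrophil-like cells but above it by Krt18, and whether these cells express it was not settled. Gsta1 had 1 UMI in macrophage-like cells of each library and 0 in the remaining classes. In the Olaparib + LLY-283 tumors 0 UMIs allow up to 4.44 CPM in CAF-like cells, 7.14 in neutrophil-like cells and 26.85 or more in the remaining classes, none of them below the tumor-like 4.39 CPM, so only macrophage-like cells can be set below tumor-like cells there. In the Combo library, where tumor-like cells were at 5.51 CPM, 0 UMIs allow 1.24 CPM in neutrophil-like cells, 2.51 in CAF-like cells and 8.765 or more in the others. Nqo1 was at 6.21 and 5.37 CPM in macrophage-like cells, 27.7% and 21.3% of the tumor-like level, from 9 and 25 UMIs, where Krt8 was at 17.7% and 12.2%. In CAF-like cells it was at 39.65% and 19.9% of that level, from 6 UMIs in each library, above Krt8 as well.

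The second pattern was that of Hmox1, which was highest in macrophage-like cells in both libraries. It was at 1520 CPM in 611 macrophage-like cells of the Olaparib + LLY-283 tumors (interval 1457 to 1585) and at 609 CPM in 370 cells of the Combo library (587 to 632). That is 603% and 296% of the tumor-like level. The Combo over Olaparib + LLY-283 ratio in these cells was 0.401 (0.379 to 0.424), where 1.69% of 6447 genes tested in them were at least 1.5-fold lower. In the cells with Ccr2 and Plac8, monocyte genes, Hmox1 was at 626.5 and 163.6 CPM in 61 and 49 cells. Neutrophil-like cells were at 364 and 340 CPM and CAF-like cells at 105 and 91.9 CPM. The macrophage-like cells differed in their leading genes, with Cd163 and Lyve1, scavenger and hyaluronan receptors of tissue macrophages, among those of the Olaparib + LLY-283 tumors and Mmp12, an elastase, first in the Combo library. Their median depths were 2097 and 11742 UMIs. The part of these differences in the Hmox1 ratio was not tested.

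The third pattern was that of the metallothioneins, which had their highest levels outside the tumor-like cells. Mt1 was at 6847 and 5970 CPM in CAF-like cells and at 7218 and 7981 CPM in myogenic-like cells, above its tumor-like 6350 and 4227 CPM. In the Olaparib + LLY-283 tumors the intervals of the first 2 classes overlapped. Mt1 was at 3653 and 2622 CPM in macrophage-like cells, 3321 and 1447 CPM in neutrophil-like cells and 1789 and 724 CPM in T/NK-like cells, its lowest class in both libraries. In neutrophil-like cells the Mt1 level was 52.3% and 34.25% of the tumor-like level, where Krt8 was at 36.5% and 23.6%, so it was not far above that gauge. In T/NK-like cells the Mt1 level was 28.2% and 17.1% of the tumor-like level, where Krt8 was at 21.2% and 9.23%. Mt2 was highest in CAF-like cells, at 1958 and 1845 CPM. In the Olaparib + LLY-283 tumors its interval there (1854 to 2067) overlapped that of myogenic-like cells (1473 to 2188). Myogenic-like cells were highest in those tumors with marker floors of 2 times, with doublets kept and as a mean over cells. The same held with the Krt8 share taken off.

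Gclc, Gclm, Srxn1 and Txnrd1 were spread over several classes, relative to tumor-like cells above Krt8 in both libraries in the macrophage-like, neutrophil-like and CAF-like cells. In neutrophil-like cells of the Olaparib + LLY-283 tumors, Gclc, Gclm and Srxn1 had only 9, 36 and 11 UMIs. They were at 52.6%, 48.15% and 49.0% of the tumor-like level, where Krt8 was at 36.5%, so they were not clearly above that gauge. Txnrd1 was at 159 and 171 CPM in neutrophil-like cells, and in the Combo library the intervals of tumor-like (174 to 179) and neutrophil-like cells (154.5 to 188) overlapped. Gclm was at 85.6 and 77.6 CPM in neutrophil-like and at 70.4 and 53.5 CPM in macrophage-like cells, below its tumor-like level in both. Gclc was at 25.5 and 24.3 CPM in macrophage-like cells. Its highest values, in myogenic-like cells (70.1 CPM) and in T/NK-like cells (49.5 CPM), came from 4 and 8 UMIs, and their intervals held the tumor-like level. Srxn1 was at 46.2 and 23.7 CPM in macrophage-like cells, a ratio of 0.511 (0.374 to 0.704). In all, 5 of 10 members in the Olaparib + LLY-283 tumors and 6 of 10 in the Combo library were highest in tumor-like cells, over 8 and 7 classes. How many of all genes were highest in tumor-like cells was not counted, so nothing is read from these counts.

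**Figure D5:**
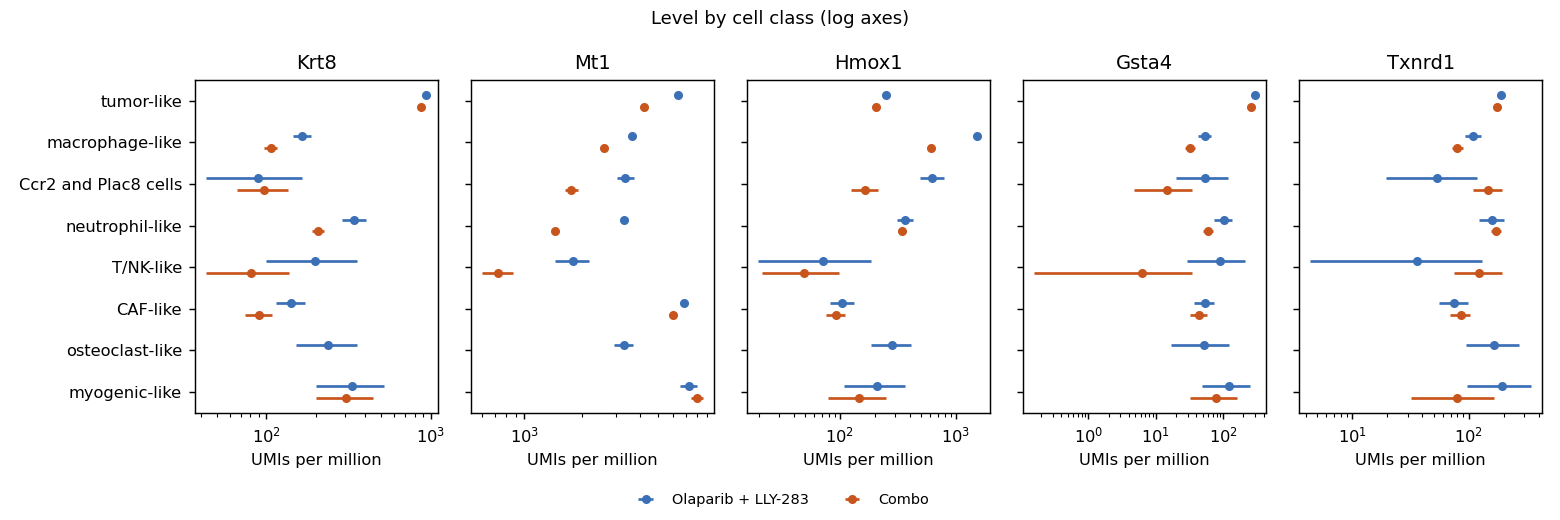
Level by class of 4 members and of Krt8, a gauge of tumor RNA in other droplets, in CPM (x axes, log scale), 1 point per library with 95% counting intervals. Hmox1 peaks in macrophage-like cells (1520 and 609), Mt1 is high in CAF-like and myogenic-like cells, and Gsta4 is at 18.2% and 12.3% of its tumor-like level in macrophage-like cells, where Krt8 is at 17.7% and 12.2%.

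Most other pathway genes lay within 1.5-fold between the libraries, as did most of all tested genes. Of 83 genes in 6 fixed lists, 72 had at least 100 UMIs in tumor-like cells. Of these, 66 lay within 1.5-fold, 3 were lower and 3 were higher in the Combo library. Over all 13101 tested genes, 1.66% were lower and 6.27% higher by that limit. In the NRF2 axis, 9 of 9 lay within it, with a median log2 ratio of 0.02. Nfe2l2, the NRF2 gene, was at 94.7 and 80.6 CPM, Keap1 at 46.1 and 57.7 CPM and Bach1, the competing repressor, at 15.4 and 21.3 CPM (log2 ratio 0.47). Of the further NRF2 targets, 18 of 20 were tested, with 1 lower, Aldh3a1, an aldehyde dehydrogenase at under 1 CPM in both libraries. Ferritin heavy chain Fth1, which stores the iron that Hmox1 sets free, was at 11128 and 8457 CPM, a log2 ratio of -0.40. Gsr, which reduces oxidized glutathione, was at 104 and 134 CPM, and Me1, which makes NADPH, at 55.7 and 72.0 CPM, both with a log2 ratio of 0.37.

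None of the 9 tested genes of glutathione synthesis and the peroxidases passed the limit. The lowest was Glrx, glutaredoxin, at 80.0 and 54.4 CPM (log2 ratio -0.56), and Gpx4, which removes lipid hydroperoxides, was at 455 and 520 CPM. Among the other glutathione S-transferases, 18 of 24 were tested. Gsto2 was lower (3.48 and 2.10 CPM) and Gstm7 higher (1.92 and 3.32 CPM), while the abundant Gsto1 was at 257 and 194 CPM and Gstp1 at 93.2 and 137 CPM. In the list of metallothioneins and zinc genes, 6 of 6 were tested. Mt4 was lower, at 1.89 and 0.534 CPM from 125 and 62 UMIs, and Mt3 was higher, at 0.409 and 0.646 CPM from 27 and 75 UMIs. Mtf1 was at 17.8 and 15.5 CPM, and Slc30a1, a zinc exporter and known MTF1 target, at 2.95 and 4.16 CPM (log2 ratio 0.49), the opposite direction to Mt1 and Mt2. Of the 12 oxidant enzymes, Txnip, which binds and inhibits thioredoxin, was the 1 past the limit, at 10.0 and 17.2 CPM (log2 ratio 0.78).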

How the data were processed

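Droplet 3′ libraries of dissociated subcutaneous EMT6 tumors were analysed, 1 for each of 2 groups, each from 3 mice pooled. The authors deposited raw counts of UMIs per gene and cell. The matrix header names version 6.1.2, and the submitters' processing notes name Cell Ranger, bcl2fastq 5.0.1, Seurat 4.1.0 and the mm10 build. The 10 members and all lists were chosen with earlier results of these data known. Named genes were the members, for each member the 5 genes most like it where the mean r was at least 0.1, and from each pathway list genes among the 3 largest ratios in each direction. The genes named at 30000 UMIs were chosen after their values were seen.

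Cells needed 200 or more genes and a mitochondrial share below 20%. Doublets were predicted by Scrublet in scanpy 1.11.5 (expected rate 0.8% per 1000 cells, genes in at least 3 cells) and left out. A cell was placed in a class where at least 2 of its markers were detected and their summed UMIs passed a floor, set after the distributions were seen. CPM values are class sums with exact Poisson intervals. Ratios have exact binomial intervals, shares Clopper-Pearson and differences Newcombe intervals. The background was all genes whose 2 libraries together held 100 UMIs or more in the class. Shares were thinned by the hypergeometric formula and correlations by 10 seeded draws (5 at 10000 and 30000 UMIs), over genes detected in at least 5% of thinned cells. No p-value was computed, since cells are not replicates. A count of 0 allows up to 3 counts. The computations were tested on simulated data. Tools were pandas 2.3.3, matplotlib 3.10.9, scipy 1.17.1 and numpy 2.4.6 under Python 3.11.15.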

Additional observations from a re-analysis of the deposited data

Results flagged for a closer look

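The interval of the Txnrd1 ratio lay above 1 in 1 class and below 1 in tumor-like cells. Txnrd1 is given because a search over all members and classes for such opposite directions returned it. In the cells with Ccr2 and Plac8 its Combo over Olaparib + LLY-283 ratio was 2.72 (interval 1.17 to 7.77), from 6 UMIs in 61 cells and 50 UMIs in 49 cells, whereas in tumor-like cells it was 0.930. The difference between the classes was not tested. Of 700 genes tested in the cells with Ccr2 and Plac8, 8.86% were at least 1.5-fold higher in the Combo library.

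Cells that met the rule of no class, which the comparisons above left out, also carried the metallothioneins. Mt1 was at 5534 CPM in 6737 such cells of the Olaparib + LLY-283 tumors and at 4415 CPM in 1461 such cells of the Combo library. In the same cells Krt8 was at 598 and 440 CPM, and the matrix gene Mgp at 320 and 199 CPM.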

How the results depend on the processing

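The number of members past 1.5-fold, 1 as reported, was 0 in cells of at least 5000 UMIs, 0 as a mean over cells, 0 with a limit of 2-fold, and 0 with 1 tumor marker. It was 2 (Gclm and Txnrd1) in cells of 5000 to 20000 UMIs and 2 (the same genes) in cells of 20000 to 40000 UMIs. The settings of 1 tumor marker, of 20000 to 40000 UMIs, of 30000 UMIs and of a Krt8 share taken off were chosen after seeing the data. Ratios turned direction in cells of 5000 to 20000 UMIs for Gsta1 (0.850) and Nqo1 (0.895), both from few Combo UMIs. Those numbered 0 below and 6 above 10000 UMIs per cell for Gsta1, and 4 and 25 for Nqo1. In cells of 20000 to 40000 UMIs, ratios turned for Mt1 (1.32), Mt2 (1.22), Gsta1 (0.806), Nqo1 (0.787) and Hmox1 (1.15). Gclc was level there (1.005). Gsta4, Gclm and Txnrd1 stayed below 1 under all 11 alternatives, and Mt1 (0.656 to 1.32) and Hmox1 under 10 of 11. In cells of 40000 UMIs or more, which is not one of these, Txnrd1 was at 1.17 and Gsta4 at 1.08. Gsta1 and Nqo1 were above 1 there (3.23 and 1.11), as over all cells.

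Without thinning, the share was lower in Combo for 1 member in place of 9, and the difference in percentage points was 2.36 for Mt2, 12.5 for Gsta4, 33.9 for Gclc, 20.4 for Gclm, 17.5 for Txnrd1, 15.6 for Hmox1, 5.94 for Gsta1, 37.3 for Srxn1 and 37.8 for Nqo1. At 1000 UMIs it was -7.38 for Mt1, -11.4 for Mt2, -0.692 for Gclc, -1.5 for Gclm, -1.92 for Txnrd1 and -3.27 for Hmox1. At 10000 UMIs it was -0.0198 for Mt1, -3.52 for Mt2, -5.69 for Gclc and -7.94 for Gclm. The r of Mt1 with Mt2 was 0.567 and 0.531 at 1000 UMIs, 0.857 and 0.818 at 10000 and 0.893 (252 cells) and 0.874 at 30000, with a Spearman value of 0.826 in the Olaparib + LLY-283 tumors. The mean r of the 6 NRF2 targets in the Combo library was 0.0846 at 30000 UMIs, the 1 alternative for this mean that moved. The 13 others over both libraries, among them 30000 UMIs in the Olaparib + LLY-283 tumors, stayed within the sampling error of the reported value. With doublets kept, 3 members in place of 5 were highest in tumor-like cells of the Olaparib + LLY-283 tumors. Srxn1, 1 of the members that moved, also did so with marker floors of 2 times, in cells of at least 1000 UMIs and as a mean over cells. The causes were not tested.

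No paired analysis was possible because each group has 1 library, and leaving out a library leaves no comparison. Depth limits Gsta1, Nqo1 and Gclc most, and classes under 100 cells hold few UMIs of any member but Mt1 and Mt2.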

Other observations

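The cells of no class held most members at levels near those of tumor-like cells. Gsta4 was at 239 and 199 CPM, Hmox1 at 231 and 227 CPM, Gclm at 156 and 139 CPM, Txnrd1 at 188 and 167.5 CPM and Nqo1 at 20.4 and 20.2 CPM (Olaparib + LLY-283, then Combo). Gsta1 stood apart from these, at 1.72 and 1.36 CPM against 4.39 and 5.51 CPM in tumor-like cells. Mt2 was lower in the Combo library here too, at 1011 and 755 CPM.

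Cells with 20% or more mitochondrial UMIs numbered 81 and 1582 with at least 200 genes. They held Mt1 at 3549 and 2677 CPM and Hmox1 at 263.5 and 134.5 CPM. Cells that met more than 1 class, 255 and 473 in number, had Hmox1 at 1110 and 374 CPM, between the tumor-like and macrophage-like levels of the same library, with C1qa at 1836 and 1464 CPM.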
